A study of Mus musculus with 24 samples.

Results

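Transforming growth factor beta and bone morphogenetic protein signalling was followed in the nerve roots of mice through 10 genes: the ligands Tgfb1, Tgfb2, Tgfb3, Bmp2, Bmp4, Bmp6 and Bmp7, the receptors Tgfbr1 and Tgfbr2, and the pseudoreceptor Bambi. They were chosen by name, out of 37074 gene names on the array, and are held by 16 of its 56605 gene probes. Each gene is described through its probe with the highest mean log2 signal, and the 4 genes with further probes are checked against those. The 10 probes were well above background on all 24 arrays.

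EN denotes efferent (ventral root) and AN afferent (dorsal root) fibres, taken from L4 to L6 of C57BL/6 mice at birth (P0) and aged 1 W, 3 W or 5 W. Each of the 8 groups has 3 arrays, numbered 1 to 3. No genotype or treatment was varied. According to the methods, 9 animals of both sexes were used per stage, their tissue was pooled into 1 tube per group, and 3 independent experiments were run. Neither source ties an array to particular animals, so that a p value measures the spread between these arrays. The roots hold axons together with Schwann cells, fibroblasts, vessels and immune cells, and in such bulk tissue fewer cells of a type and less RNA per cell cannot be told apart.

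Ligands of this family bind pairs of type I and type II serine/threonine kinase receptors, which phosphorylate Smad proteins that then act on target genes in the nucleus. Tgfb ligands use Tgfbr2 and Tgfbr1 and are secreted in a latent form, whereas Bmp ligands use other type I receptors and are held in check by secreted antagonists such as chordin and follistatin relatives. In peripheral nerve, Tgfb is known for its part in the survival and proliferation of immature Schwann cells, and Bmp signalling for its part in the development of neurons, glia and connective tissue.

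The labels were set against marker genes of cell types. The 5 markers of myelinating Schwann cells were above background in every group, with a summed log2 signal of 18.7 to 19.9. The 6 markers of sensory neurons reached 16.1 to 16.5 in AN at 1 W, against 10.41 to 12.02 in EN, but at P0 the arrays labelled EN (14.8 to 15.6) overlapped those labelled AN (15.0 to 16.6). Motor neuron markers were not higher in EN: 0 of 4 tested were called lower in AN at any stage, and their sum in EN was 11.5 to 12.1 at P0 and 8.37 to 9.74 at 1 W. Among the sensory neuron sums AN replicate 3 at 3 W stood apart, at 17.8 against 12.9 and 12.4 in its group. So did AN replicate 3 at 5 W, which lay below every EN array of that stage (10.9 to 11.5) where its group's other arrays were at 14.6 and 13.4. Skeletal muscle markers varied within AN at 3 W (13.4 to 16.7) and 5 W (11.8 to 16.3). Other sums of AN replicate 3 at 3 W also differed from those of replicates 1 and 2. Its motor neuron sum was 13.16 against 9.94 and 9.89, and its perineurial or meningeal sum 18.03 against 17.31 and 16.55. The macrophage sum was 14.27 against 14.88 and 15.09, and the endothelial sum 13.60 against 14.13 and 14.11. All 5 dividing cell markers fell from P0 to each later stage in both fibres, with sums of 15.1 to 15.4 at P0 and 11.2 to 11.7 at 5 W in EN, and of 15.7 to 16.1 and 11.5 to 11.8 in AN. Macrophage markers went the other way, with sums of 13.4 to 13.6 at P0 and 15.3 to 15.6 at 5 W in EN, and of 13.6 to 13.8 and 14.8 to 15.2 in AN. These shifts move with the stages compared below, and their part in the results on single genes was not tested.

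**Figure D1:**
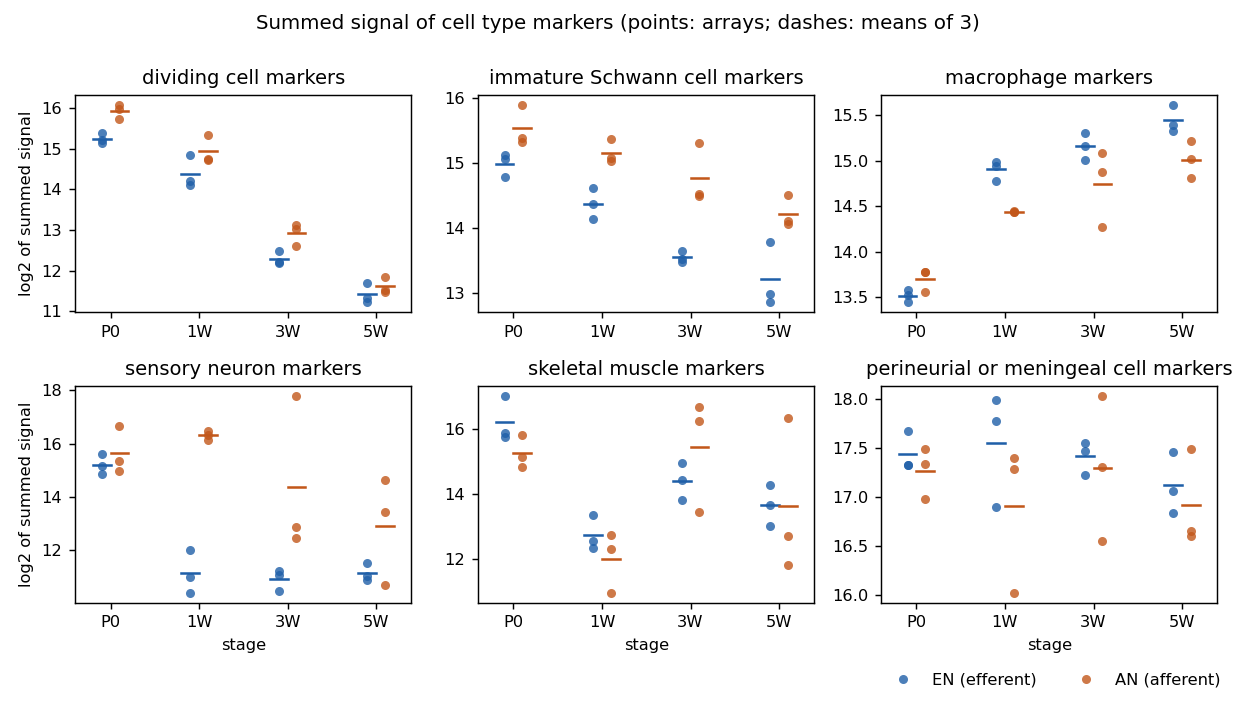
Summed log2 signal of 6 lists of cell type markers (vertical axis) by stage (horizontal axis), with EN in blue and AN in orange; each point is an array and each dash the mean of 3. Dividing cell markers lie between 15.1 and 16.1 at P0 and between 11.2 and 11.8 at 5 W, and 1 AN array at 3 W has a sensory neuron sum of 17.8.

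The arrays lie on 4 slides, which bears on the stages. Slide 1 carried replicate 1 at P0 and 1 W, slide 2 carried 1 W replicate 2 with 5 W replicate 1, slide 3 carried P0 replicates 2 and 3, 1 W replicate 3 and 5 W replicate 2, and slide 4 carried 3 W entirely, with 5 W replicate 3. An EN array and its AN array of equal number share a slide, so that fibres can be compared within slides, and 5 W and 1 W with P0 in part. At 3 W no array shares a slide with P0 or 1 W. A value with slide as a block then rests on the 5 W arrays that link the slides, and it is given wherever it ends a call.

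Most of the 10 genes changed with age, as did many of all tested probes, whose shares stand beside each count. Between the fibres Bmp7 was called in the fit without pairs of arrays, and Bmp2, Tgfb2 and Tgfbr2 were called as well at some stages when arrays of equal number were paired, as described further on. A gene was called at an adjusted p below 0.05 in limma, over all 36409 tested probes. In EN, 1 gene rose and 2 fell from P0 to 1 W, where 15.5% of all tested probes rose and 11.6% fell. From P0 to 3 W, 2 rose and 4 fell (background 29.0% and 26.0%), and from P0 to 5 W, 3 rose and 4 fell (28.2% and 26.0%). In AN, 0 rose and 4 fell by 1 W (12.3% and 9.35%), 1 rose and 6 fell by 3 W (26.8% and 24.9%), and 1 rose and 5 fell by 5 W (26.4% and 24.2%). The median change of the 10 genes since P0 was −0.21, −0.41 and −0.24 in EN and −0.30, −0.83 and −0.55 in AN, on the log2 scale, beside medians over all tested probes of 0.06, 0.04 and 0.04 in EN and 0.02, 0.01 and 0.03 in AN.

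Consecutive later stages were compared in turn. From 1 W to 3 W, 0 of the 10 genes rose and 4 fell in EN (background 13.2% and 14.2%), while 1 rose and 2 fell in AN (14.6% and 15.3%). From 3 W to 5 W, 1 rose and 0 fell in EN (1.45% and 0.805%), and neither direction held a member in AN (2.19% and 1.48%). Between AN and EN, 0 of 10 were called at P0 and 1 of 10 at each of 1 W, 3 W and 5 W, against shares of all probes of 0.739%, 4.00%, 5.89% and 6.76%, either direction. The AN-EN difference at a later stage minus that at P0 was called for 0 of 10 genes at 1 W, 3 W and 5 W, against 0.0632%, 0.615% and 1.14% of all probes. At an unadjusted p below 0.05, 2, 4 and 2 genes passed in these 3 comparisons, 3 between AN and EN at P0, and 4 from 3 W to 5 W in AN. The share of all probes that pass at this unadjusted threshold was not computed, so that these counts cannot be set against a background.

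**Figure D2:**
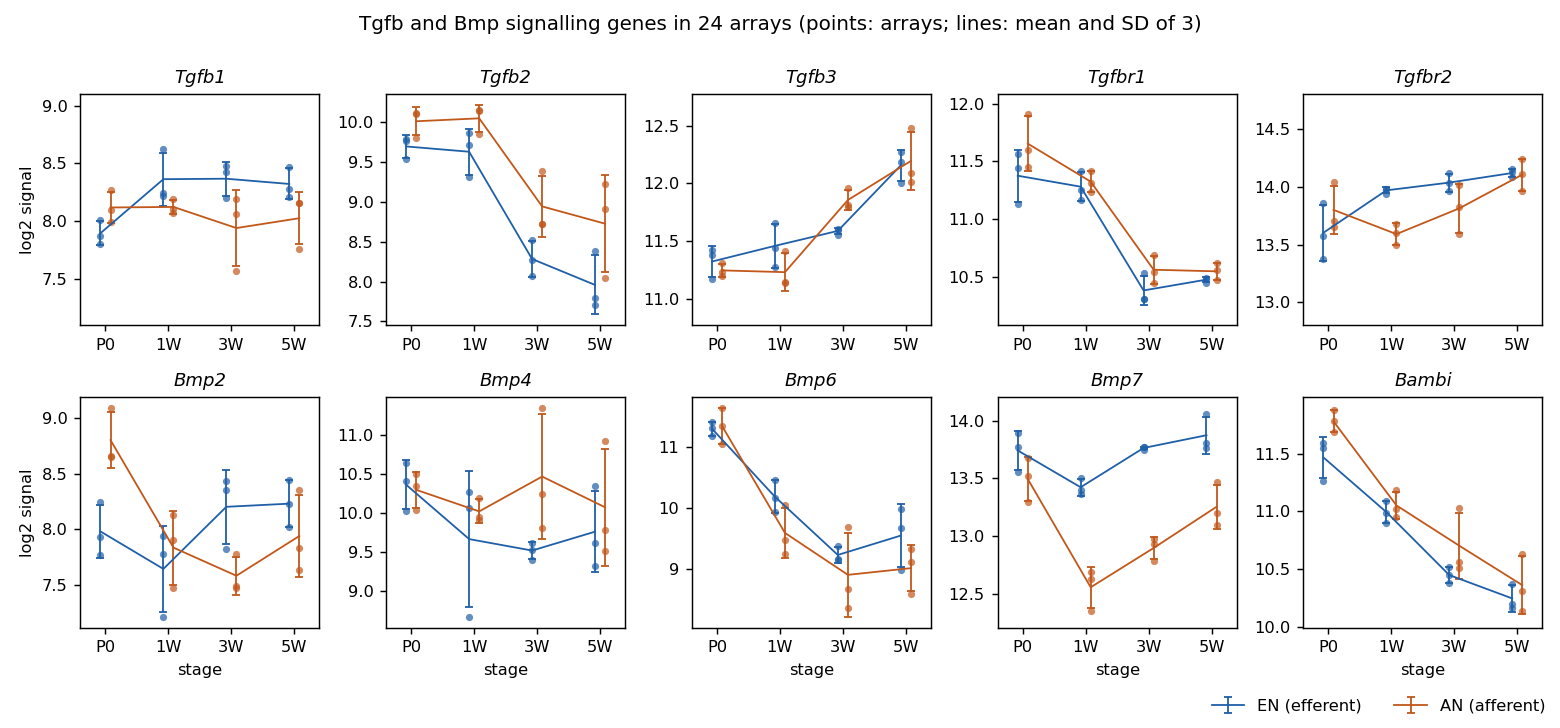
Log2 signal (vertical axes) of the 10 genes by stage (horizontal axes), with EN in blue and AN in orange; points are arrays, lines join means of 3 and bars are SD. Tgfb2, Tgfbr1, Bmp6 and Bambi are lower at 5 W than at P0 in both fibres, Tgfb3 is higher, and Bmp7 is lower in AN than in EN at 1 W, 3 W and 5 W.

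Each gene is read through a stretch of 60 bases, shown here for Tgfb1 and Tgfb2, a pair of relatives whose changes with age in EN differed. The Tgfb1 probe lies on mm9 chr7:26489877-26489936, plus strand, and the Tgfb2 probe on mm9 chr1:188449333-188449392, minus strand. Bases 20 to 60 of the first align with bases 1 to 41 of the second without gaps. Of these 41 bases 28 are identical (68.3%), and capitals mark the 13 that differ:
Tgfb1: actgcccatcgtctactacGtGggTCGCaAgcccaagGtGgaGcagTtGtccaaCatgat
Tgfb2: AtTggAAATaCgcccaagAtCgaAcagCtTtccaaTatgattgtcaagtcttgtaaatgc

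Tgfb1, the most widely studied ligand of the family, changed little. Tgfb1 had log2 signals in EN of 8.01, 7.87 and 7.80 (P0), 8.24, 8.63 and 8.22 (1 W), 8.20, 8.42 and 8.48 (3 W) and 8.21, 8.28 and 8.47 (5 W). Its AN arrays read 7.99, 8.09 and 8.27 (P0), 8.10, 8.07 and 8.19 (1 W), 8.06, 8.19 and 7.57 (3 W) and 8.16, 7.76 and 8.15 (5 W). Every later EN array lay above the P0 arrays, whereas in AN the stages overlapped. The EN changes were 0.47 at 1 W (standard error 0.16, adjusted p = 0.0365), 0.47 at 3 W (adjusted p = 0.0183) and 0.43 at 5 W (adjusted p = 0.0311). Those in AN lay between −0.18 and 0.00 and were not called. These EN calls did not hold under all settings. With slide as a block the changes were 0.42, 0.18 and 0.27 (adjusted p = 0.0526, 0.568 and 0.194), and scaling to the 75th percentile or averaging both probes of the gene ended all 3 calls. The call at 1 W also ended without EN 1 W replicate 1 or 2 or EN P0 replicate 2 or 3 (adjusted p = 0.0506 to 0.181), that at 3 W without EN 3 W replicate 2 or 3 or EN P0 replicate 3 (0.0557 to 0.0677), and that at 5 W without EN 5 W replicate 2 or 3 or EN P0 replicate 2 or 3 (0.0501 to 0.114). The second Tgfb1 probe was above background on 13 arrays.

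Tgfb2, a ligand made by many mesenchymal and glial cells, fell after the first week in both fibres. Tgfb2 had log2 signals in EN of 9.54, 9.77 and 9.79 (P0), 9.31, 9.87 and 9.71 (1 W), 8.52, 8.27 and 8.07 (3 W) and 8.38, 7.79 and 7.70 (5 W). The AN arrays read 9.81, 10.12 and 10.11 (P0), 9.85, 10.16 and 10.14 (1 W), 8.72, 8.72 and 9.39 (3 W) and 9.22, 8.92 and 8.05 (5 W). Within each fibre P0 and 1 W overlapped and lay above every array of 3 W and 5 W, which overlapped in turn. From P0 the change in EN was −1.41 at 3 W (standard error 0.26, adjusted p = 1.84e-04) and −1.74 at 5 W (3.34-fold, adjusted p = 1.87e-05), and in AN −1.07 at 3 W (adjusted p = 2.25e-03) and −1.29 at 5 W (2.44-fold, adjusted p = 4.46e-04). Between P0 and 1 W it was −0.07 in EN and 0.04 in AN, neither called. Within slide 3, the 5 W array lay below the mean of the P0 arrays by −1.99 in EN and −1.20 in AN.

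The step of Tgfb2 from 1 W to 3 W, −1.35 in EN (adjusted p = 9.62e-04) and −1.11 in AN (adjusted p = 3.92e-03), falls between slides. With slide as a block it was −0.78 (adjusted p = 0.0525) and −0.53 (adjusted p = 0.156), the AN change from P0 to 3 W was −0.59 (adjusted p = 0.0987), and the EN change from 3 W to 5 W became a call at −0.80 (adjusted p = 0.0463). A second Tgfb2 probe also fell from P0 to 5 W, with changes of −1.80 in EN (adjusted p = 4.25e-06) and −0.91 in AN (adjusted p = 3.74e-03), and it fell in EN from 3 W to 5 W as well (−1.05, adjusted p = 0.0247). From P0 to 3 W it changed by −0.74 in EN (adjusted p = 0.0132) and by −0.43 in AN, the latter not called (adjusted p = 0.14).

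Tgfb3, another ligand of the same receptors, moved the opposite way. Tgfb3 had log2 signals in EN of 11.38, 11.42 and 11.17 (P0), 11.44, 11.65 and 11.27 (1 W), 11.60, 11.56 and 11.61 (3 W) and 12.19, 12.01 and 12.27 (5 W). Its AN arrays read 11.31, 11.20 and 11.23 (P0), 11.14, 11.42 and 11.13 (1 W), 11.81, 11.80 and 11.96 (3 W) and 12.48, 12.09 and 12.01 (5 W). The 5 W arrays lay above all others of their fibre, and in AN those of 3 W lay between. Tgfb3 rose from P0 to 5 W by 0.83 in EN (standard error 0.13, 1.78-fold, adjusted p = 3.47e-05) and by 0.95 in AN (1.93-fold, adjusted p = 8.67e-06). By 3 W it had risen by 0.61 in AN (adjusted p = 8.66e-04), and the EN change of 0.27 was not called. The step that was called was that from 1 W to 3 W in AN (0.63, adjusted p = 1.80e-03) and that from 3 W to 5 W in EN (0.57, adjusted p = 0.0295). The AN mean also rose from 11.85 at 3 W to 12.19 at 5 W, which was not called. No AN-EN difference since P0 was called for Tgfb3, with or without pairs, so that these calls do not show a different timing in the fibres. The EN step was not called without any 1 of the 6 arrays compared (adjusted p = 0.0503 to 0.137). On slide 3 alone, the 5 W array exceeded the P0 mean by 0.71 in EN and 0.88 in AN.

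Tgfbr1, the type I receptor kinase that passes the Tgfb signal to Smad2 and Smad3, fell after the first week as read by its probe with the highest mean signal. Tgfbr1 had log2 signals in EN of 11.44, 11.13 and 11.56 (P0), 11.26, 11.42 and 11.17 (1 W), 10.30, 10.31 and 10.53 (3 W) and 10.49, 10.48 and 10.45 (5 W). The AN arrays read 11.60, 11.45 and 11.91 (P0), 11.32, 11.24 and 11.42 (1 W), 10.54, 10.69 and 10.45 (3 W) and 10.47, 10.62 and 10.56 (5 W). No array of 3 W or 5 W reached any of P0 or 1 W. The change since P0 in EN was a 1.99-fold fall at 3 W (standard error 0.13 on the log2 scale, adjusted p = 5.15e-06) and −0.90 at 5 W, and in AN −1.09 at 3 W and −1.11 at 5 W (2.16-fold, adjusted p = 1.18e-06). The step from 1 W to 3 W was −0.90 in EN and −0.76 in AN (adjusted p = 3.21e-04), and both steps were still called when slide was a block (−0.89 and −0.75). In the first week the change was −0.10 in EN and −0.33 in AN, not called, though without AN P0 replicate 2 the AN change was −0.43 (adjusted p = 0.0378). Within slide 3, 5 W lay below P0 by −0.86 in EN and −1.07 in AN. A second Tgfbr1 probe, above background on 22 arrays, was not called in any comparison, and with the tested probes averaged the AN step from 1 W to 3 W was −0.48 (adjusted p = 0.0524). A further 2 probes were above background on 6 arrays and 1 array and were not tested.

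Tgfbr2, the type II receptor that binds Tgfb ligands first, did not fall with its partner. Tgfbr2 had log2 signals in EN of 13.58, 13.37 and 13.86 (P0), 13.94, 13.98 and 13.98 (1 W), 14.03, 13.96 and 14.12 (3 W) and 14.08, 14.15 and 14.13 (5 W). Its AN arrays read 13.65, 13.71 and 14.04 (P0), 13.49, 13.60 and 13.68 (1 W), 13.83, 14.02 and 13.59 (3 W) and 13.96, 14.24 and 14.11 (5 W). Every later EN array exceeded the P0 arrays, while in AN the 4 stages overlapped apart from 1 W and 5 W. In EN the change since P0 was 0.37 at 1 W (standard error 0.14, adjusted p = 0.0514), 0.43 at 3 W (adjusted p = 0.0113) and 0.52 at 5 W (1.43-fold, adjusted p = 3.41e-03). The call at 3 W ended with slide as a block (0.43, adjusted p = 0.0927) and without EN P0 replicate 2 (0.32, adjusted p = 0.0707). That at 1 W was gained with slide as a block (0.40, adjusted p = 0.0320) and without any 1 of EN P0 replicate 3, AN P0 replicate 3, AN 3 W replicates 2 and 3 and AN 5 W replicate 2 (adjusted p = 0.0198 to 0.0482). In AN the changes were −0.21, 0.01 and 0.31, none called, and the last was called without AN 5 W replicate 1 (0.38, adjusted p = 0.0490) or AN P0 replicate 3 (0.43, adjusted p = 0.0214).

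**Figure D3:**
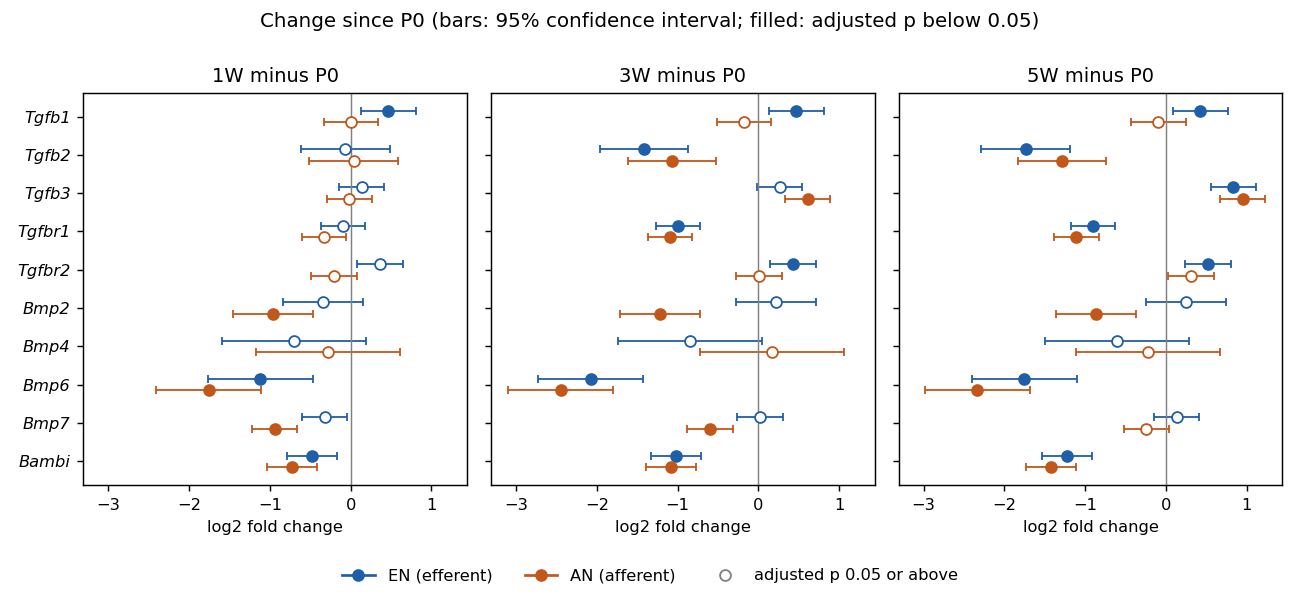
Log2 fold change since P0 (horizontal axes) of the 10 genes (vertical axis) at 1 W, 3 W and 5 W, with EN in blue and AN in orange; bars are 95% confidence intervals from limma and filled points have an adjusted p below 0.05. Bmp6 has the largest fall of the 10 genes, −2.44 in AN at 3 W, and the intervals of Bmp4 cross 0 in both fibres.

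Bmp6, a ligand that acts through Smad1, Smad5 and Smad9, showed the largest change of the 10 genes. Bmp6 had log2 signals in EN of 11.31, 11.19 and 11.41 (P0), 9.93, 10.16 and 10.46 (1 W), 9.14, 9.17 and 9.38 (3 W) and 8.98, 9.99 and 9.67 (5 W). The AN arrays read 11.05, 11.34 and 11.65 (P0), 9.24, 9.48 and 10.05 (1 W), 8.35, 8.67 and 9.68 (3 W) and 8.59, 9.33 and 9.11 (5 W). All P0 arrays lay above all later arrays in both fibres, and the later stages overlapped except 1 W and 3 W in EN. Since P0 the EN change of Bmp6 was −1.12 at 1 W (standard error 0.31, adjusted p = 0.0118), −2.07 at 3 W (adjusted p = 2.02e-05) and −1.76 at 5 W (adjusted p = 1.03e-04). In AN the log2 changes were −1.76 (adjusted p = 4.93e-04), −2.44 (5.44-fold, adjusted p = 3.42e-06) and −2.34 (adjusted p = 4.64e-06). Within slides, 1 W lay below P0 by −1.38 and −0.84 in EN and by −1.81 and −1.45 in AN, and 5 W by −1.31 in EN and −2.16 in AN.

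A further fall of Bmp6 after the first week was called in EN. From 1 W to 3 W the change was −0.96 in EN (adjusted p = 0.0284) and −0.69 in AN (adjusted p = 0.102). The EN call ended without EN 1 W replicate 2 or 3 or EN 3 W replicate 1 or 2 (adjusted p = 0.0609 to 0.10), and that from P0 to 1 W in EN without EN 1 W replicate 1 (−0.99, adjusted p = 0.0573). Without AN 3 W replicate 3, the array rich in sensory neuron markers, the AN step was called at −1.08 (adjusted p = 0.0083).

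Bambi, a membrane protein that resembles a type I receptor but has no kinase domain and dampens Tgfb and Bmp signals, fell from P0 to every later stage in both fibres. Bambi had log2 signals in EN of 11.59, 11.26 and 11.55 (P0), 10.99, 11.09 and 10.90 (1 W), 10.52, 10.38 and 10.45 (3 W) and 10.16, 10.20 and 10.38 (5 W). Its AN arrays read 11.78, 11.69 and 11.88 (P0), 11.02, 11.18 and 10.95 (1 W), 10.51, 10.57 and 11.03 (3 W) and 10.31, 10.14 and 10.63 (5 W). In EN the 4 stages did not overlap, though the closest arrays of 3 W and 5 W both round to 10.38. In AN replicate 3 of 3 W lay among the 1 W arrays. From P0 the EN changes were −0.47 at 1 W (standard error 0.15, adjusted p = 0.0223), −1.02 at 3 W (adjusted p = 1.36e-05) and −1.22 at 5 W (2.33-fold, adjusted p = 1.36e-06). Those in AN were −0.73 (adjusted p = 1.52e-03), −1.08 (adjusted p = 7.76e-06) and −1.42 (2.68-fold, adjusted p = 2.13e-07). On slide 3, 5 W lay below P0 by −1.21 in EN and −1.64 in AN.

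The steps of Bambi between 1 W and 3 W were −0.55 in EN (adjusted p = 0.0102) and −0.35 in AN (adjusted p = 0.0801), the latter called at −0.52 (adjusted p = 0.0101) without AN 3 W replicate 3 and at −0.65 (adjusted p = 0.0203) with slide as a block. The first EN step, from P0 to 1 W, was not called without EN 1 W replicate 1 or 3 or EN P0 replicate 1 or 3 (adjusted p = 0.0615 to 0.0824), nor when scaled to the 75th percentile (−0.39, adjusted p = 0.10).

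The fall of Tgfb2, Tgfbr1, Bmp6 and Bambi in both fibres ran alongside that of the dividing cell markers, all 5 of which fell in the same comparisons, and of immature Schwann cell markers, 4 of 5 of which fell from P0 to 5 W in each fibre. The sum of the latter was 14.8 to 15.1 at P0 and 12.9 to 13.8 at 5 W in EN. Its AN range was 15.3 to 15.9 at P0 and 14.1 to 14.5 at 5 W. Other lists fell too. Skeletal muscle markers fell from P0 to 1 W for 4 of 5 genes in both fibres (medians −3.69 in EN and −3.53 in AN), and sensory neuron markers for 6 of 6 in EN at all 3 later stages and for 4 of 6 in AN at 5 W. Perineurial or meningeal markers fell for 4 of 6 genes in AN at each later stage and for 4 of 6 in EN at 5 W. The part of any of these cells in the fall was not tested.

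For 3 of these 4 genes, the 250 bases before the RefSeq start (GRCm38.p6) are shown. As read by their probes with the highest mean signal, all 3 were lower at 3 W and 5 W than at P0 in both fibres. The promoter table holds 6 of the 10 genes, with 7 promoters in all. Letter patterns of 4 kinds were searched on both strands: the E-box CACGTG, the TATA box TATAAA, the GC box GGGCGG and the cAMP response element TGACGTCA. They occur in 6.02%, 12.4%, 32.7% and 1.55% of 32851 promoters of this length, and in 3, 1, 4 and 0 of the 7. The Tgfb2 stretch is chr1:186705990-186706239 on the minus strand, with the E-box at −51 and the TATA box at −31. The Tgfbr1 stretch shown is chr4:47352972-47353221 on the plus strand and holds the GC box in 2 places. A further Tgfbr1 promoter, chr4:47385966-47386215, is not shown and holds none of the 4 patterns. The Bmp6 stretch is chr13:38345466-38345715 on the plus strand, with the E-box at −127 and the GC box, on the other strand, at −93. Capitals mark these matches, which describe the letters and not binding:
Tgfb2: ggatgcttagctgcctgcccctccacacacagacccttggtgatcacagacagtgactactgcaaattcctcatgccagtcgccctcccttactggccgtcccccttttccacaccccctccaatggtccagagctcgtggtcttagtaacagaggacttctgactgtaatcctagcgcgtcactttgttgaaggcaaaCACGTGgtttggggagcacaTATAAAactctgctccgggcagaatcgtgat
Tgfbr1: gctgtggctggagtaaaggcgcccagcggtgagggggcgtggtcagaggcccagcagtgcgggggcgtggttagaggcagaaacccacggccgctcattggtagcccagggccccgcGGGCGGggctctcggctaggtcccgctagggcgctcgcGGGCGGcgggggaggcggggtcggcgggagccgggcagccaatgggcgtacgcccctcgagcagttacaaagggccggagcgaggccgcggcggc
Bmp6: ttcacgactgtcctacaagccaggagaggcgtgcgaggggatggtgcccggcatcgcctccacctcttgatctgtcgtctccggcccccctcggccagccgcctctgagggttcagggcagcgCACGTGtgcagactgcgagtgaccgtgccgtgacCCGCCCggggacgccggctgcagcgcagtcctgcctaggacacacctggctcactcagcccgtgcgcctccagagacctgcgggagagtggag

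Bmp2, a ligand close to Bmp4, fell in AN and was not called in EN. Bmp2 had log2 signals in AN of 8.66, 8.65 and 9.09 (P0), 7.47, 8.13 and 7.91 (1 W), 7.49, 7.78 and 7.48 (3 W) and 8.35, 7.83 and 7.64 (5 W). The EN arrays read 7.93, 8.24 and 7.77 (P0), 7.21, 7.94 and 7.78 (1 W), 8.44, 8.35 and 7.82 (3 W) and 8.44, 8.02 and 8.23 (5 W). The AN arrays at P0 lay above the other 21 arrays, and the EN stages overlapped. In AN the change since P0 was −0.96 at 1 W (standard error 0.24, adjusted p = 6.49e-03), −1.22 at 3 W (2.32-fold, adjusted p = 3.11e-04) and −0.86 at 5 W (adjusted p = 5.16e-03), the last not called with array quality weights (−0.65, adjusted p = 0.0901). In EN the changes were −0.34, 0.22 and 0.25, with 95% confidence intervals of −0.83 to 0.16, −0.27 to 0.72 and −0.25 to 0.74. Within slides, 1 W lay below P0 in AN by −1.19 and −0.96 and 5 W by −1.04. Without EN 3 W replicate 3, the EN step from 1 W to 3 W was called at 0.75 (adjusted p = 0.0438).

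Bmp4, a ligand with roles in sensory neuron and mesenchyme development, varied most between arrays of a group and was not called in any comparison. The log2 signal lay in EN between 10.03 and 10.65 (P0), 8.66 and 10.26 (1 W), 9.40 and 9.62 (3 W) and 9.32 and 10.34 (5 W). Its AN means were 10.30 ± 0.23 (P0), 10.02 ± 0.15 (1 W), 10.47 ± 0.80 (3 W) and 10.07 ± 0.75 (5 W, SD, n = 3 each). The highest of all 24 arrays was AN 3 W replicate 3, at 11.36, and the lowest EN 1 W replicate 1, at 8.66. With a standard error of 0.43, the change in EN at 3 W was −0.85 (95% confidence interval −1.74 to 0.05), and it was called when the EN P0 and 3 W arrays were fitted alone (adjusted p = 0.0060) and with array quality weights (adjusted p = 0.0239). A second Bmp4 probe was above background on all arrays and was not called either.

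Bmp7, a ligand expressed in many developing and mesothelial tissues, was called between the fibres at every stage after P0, with or without pairing the arrays. Bmp7 had log2 signals in EN of 13.56, 13.90 and 13.77 (P0), 13.36, 13.51 and 13.40 (1 W), 13.77, 13.75 and 13.77 (3 W) and 13.76, 13.80 and 14.06 (5 W). Its AN arrays read 13.29, 13.52 and 13.67 (P0), 12.35, 12.62 and 12.69 (1 W), 12.97, 12.93 and 12.78 (3 W) and 13.10, 13.20 and 13.47 (5 W). The fibres overlapped at P0, and at each later stage every AN array lay below every EN array. AN minus EN at P0 was −0.25 (standard error 0.13, adjusted p = 0.806). It was −0.87 by 1 W (1.82-fold lower, adjusted p = 1.91e-03), again −0.87 by 3 W (adjusted p = 6.61e-04) and −0.62 by 5 W (1.54-fold lower, adjusted p = 7.51e-03). From array to array of equal number it was −0.26, −0.38 and −0.10 (P0), −1.01, −0.88 and −0.71 (1 W), −0.79, −0.82 and −0.99 (3 W), and −0.66, −0.61 and −0.59 (5 W). When the 6 arrays of 5 W were fitted alone, the difference there was not called (adjusted p = 0.230).

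With age, Bmp7 changed in AN by −0.94 at 1 W (1.92-fold, adjusted p = 6.00e-05) and −0.60 at 3 W (adjusted p = 1.06e-03), and at 5 W the change of −0.24 was not called. In EN the changes were −0.32, 0.02 and 0.13, none called, and without EN P0 replicate 1 the first was −0.41 (adjusted p = 0.0487). The order of the AN stages, from 1 W through 3 W and 5 W to P0, had no called step among neighbours, with 0.34 from 1 W to 3 W (adjusted p = 0.0617) and 0.36 from 3 W to 5 W (adjusted p = 0.145). The former was called without AN 3 W replicate 3 (0.40, adjusted p = 0.0486) or AN 5 W replicate 3 (0.34, adjusted p = 0.0472), and the like step in EN, 0.34, without the latter array (adjusted p = 0.0496). The slide moves these values: with it as a block the AN changes were −0.93, −0.96 and −0.41 (adjusted p = 1.70e-03 at 5 W), and the EN change at 3 W became −0.34. Scaled to the 75th percentile, the AN change at 3 W was −0.39 (adjusted p = 0.0583).

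Many cell type lists also differed between fibres where Bmp7 did. Sensory neuron markers were called higher in AN for 6 of 6 genes at 1 W (median log2 difference 5.03), 2 at 3 W and 1 at 5 W, and astrocyte markers for 3 of 5 at 1 W (1.78) and 3 at 5 W (2.24). Dividing cell markers were higher in AN for 3 of 5 genes at 3 W. Perineurial or meningeal markers were called lower in AN for 3 (1 W), 1 (3 W) and 3 (5 W) of 6 genes, with summed log2 signals of 16.02 to 17.40 in AN against 16.89 to 17.99 in EN at 1 W. Immature Schwann cell markers were called higher in AN for 4 of 5 genes at each of these stages. Fibroblast markers were lower in AN for 1, 2 and 2 of 5 genes and endothelial markers for 1, 2 and 1 of 5. The part of these lists in the Bmp7 difference was not tested.

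Arrays of equal number deviated together from their group means, though weakly at 3 W (r = 0.18, 0.11 and 0.21). The comparison of the fibres was therefore repeated with the numbered pairs of a stage as a block. This called 8 of 40 member tests in place of 3. The share of all probes called also grew, to 3.85% (P0), 10.8% (1 W), 21.1% (3 W) and 23.5% (5 W). Beside Bmp7, the added calls were Bmp2 at P0 (0.82 higher in AN, adjusted p = 0.155 without and 0.0262 with the pairs) and at 3 W (−0.62, 0.142 and 0.0287), Tgfb2 at 3 W (0.66, 0.159 and 0.0380) and 5 W (0.77, 0.0891 and 0.0198), and Tgfbr2 at 1 W (−0.38, 0.158 and 0.0449). In each of these 5 the 3 pairs of the stage had the same sign, which also held for tests that were not called, such as Bmp4 and Tgfb3 at 3 W.

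Tgfb2 was higher in AN in all 12 pairs of arrays, by 0.20 to 1.32. At 5 W its difference was also called without pairs when AN 5 W replicate 3, the array poor in sensory neuron markers (1.11, adjusted p = 6.76e-03), or EN 5 W replicate 1 (0.98, adjusted p = 0.0483) was left out, and its second probe was higher in AN by 1.1 (adjusted p = 0.0079). At 3 W the pair that holds the array rich in sensory neuron markers had the widest gap, 1.32 against 0.20 and 0.46.

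**Figure D4:**
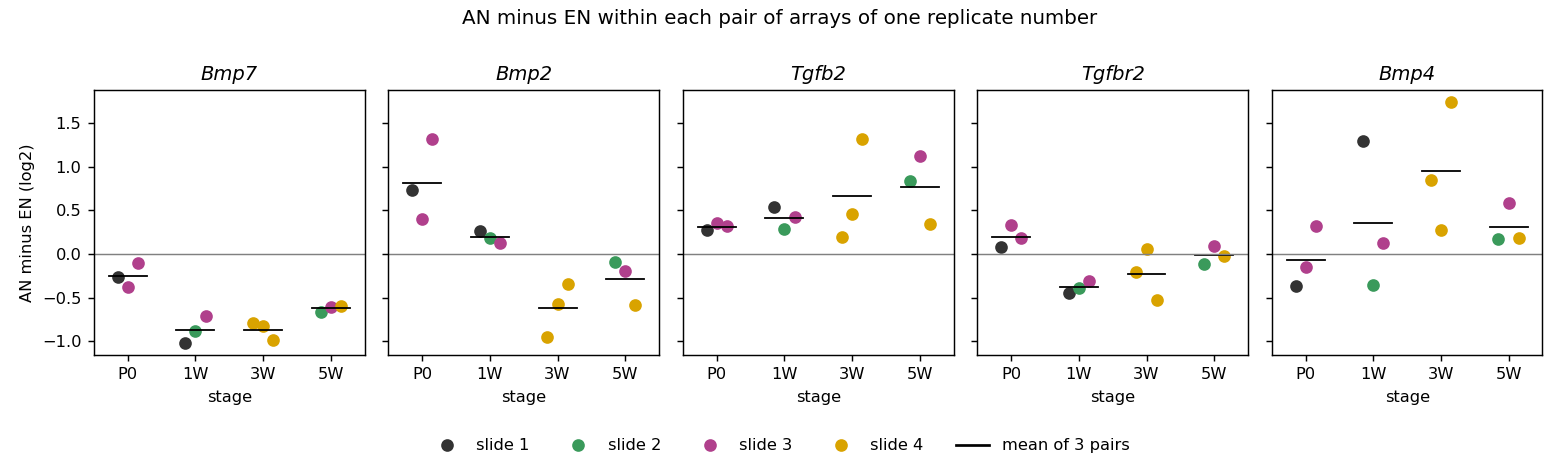
AN minus EN on the log2 scale (vertical axis) by stage (horizontal axes) for 5 genes; each point is a pair of arrays of equal number, coloured by slide, and each bar the mean of 3 pairs. All pairs of Bmp7 are below 0, all pairs of Tgfb2 are above 0, and those of Bmp2 go from above 0 at P0 to below 0 at 3 W and 5 W.

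Whether the fibres diverged with age was asked by the AN-EN difference at a stage minus that at P0. With pairs as a block 4 of 30 member tests were called, where the shares of all probes were 0.736% (1 W), 4.12% (3 W) and 6.77% (5 W). They were Bmp2 at 3 W (−1.44, adjusted p = 0.0594 without and 0.0136 with the pairs) and 5 W (−1.11, 0.139 and 0.0256), and Bmp7 at 1 W (−0.62, 0.288 and 0.0471) and 3 W (−0.62, 0.194 and 0.0207). For Bmp2 the pairs gave AN minus EN of 0.73, 0.41 and 1.32 at P0 and of −0.94, −0.57 and −0.34 at 3 W. The Bmp2 value at 3 W was also called without pairs when AN 5 W replicate 1 or 3 or EN 1 W replicate 1 was left out (adjusted p = 0.0477 to 0.0495). Of the 30 tests without pairs, none passed.

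The probes most like each gene over the 24 arrays, by Pearson correlation among the tested probes with a gene name, are given as a description. All of these arrays share the stages, so that any gene that changes with age can rank high. Bmp6 was most like Fn1 (r = 0.962), Pdk1 (0.960) and Pbx3 (0.957), Bambi most like C1qbp (0.975), Arrdc4 (0.975) and Bche (0.973), and Tgfbr1 most like Actl6a (0.978), Gtf2ird1 (0.976) and Fam135a (0.976). Tgfb2 followed Greb1l (0.949), Aplnr (0.941) and Lurap1l (0.940), and Tgfb3 followed Ch25h (0.949), Tor3a (0.918) and Srgn (0.915). Bmp7 was closest to Gli1 (0.899), Mast4 (0.886) and Echdc2 (0.886), and Tgfbr2 to Crkl (0.893), Ivd (0.876) and Mbd2 (0.873). The closest for Tgfb1 were Kcnmb4 (0.849), Galns (0.814) and Dpy19l3 (0.804), for Bmp4 Slc4a10 (0.860), Ramp1 (0.853) and Rbp4 (0.841), and for Bmp2 Procr (0.807), Clpb (0.761) and Itga9 (0.732).

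The rest of the pathway was read through 9 lists of 94 genes, of which 93 are on the array and 78 were tested. Of the 78, 11 rose and 15 fell in EN from P0 to 1 W (14.1% and 19.2%, against 15.5% and 11.6% of all probes). By 3 W, 21 rose and 23 fell (26.9% and 29.5%, against 29.0% and 26.0%), and by 5 W 23 and 23. The last are 29.5% each way, close to the 28.2% and 26.0% of all probes. In AN, 4 rose and 17 fell by 1 W (5.13% and 21.8%, against 12.3% and 9.35%). By 3 W, 17 rose and 27 fell (21.8% and 34.6%, against 26.8% and 24.9%). By 5 W, 17 rose and 25 fell, which is 21.8% and 32.1% against 26.4% and 24.2% of all probes. The counts of single lists that follow are descriptions beside the same shares. Between the fibres, 2 were called higher in AN and 0 lower at P0, 4 and 2 at 1 W, 5 and 5 at 3 W, and 7 and 2 at 5 W. The shares of all probes called there, in either direction, were 0.739%, 4.00%, 5.89% and 6.76%.

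Secreted inhibitors went in both directions. Of 12 tested, 6 rose and 4 fell in EN from P0 to 5 W, and 5 rose and 4 fell in AN. Chrdl1, a chordin relative that binds Bmp ligands, had a log2 signal of 8.50, 8.05 and 8.59 in EN and 8.35, 7.25 and 8.60 in AN at P0, and of 12.75, 13.13 and 9.85 in EN and 13.63, 14.17 and 14.15 in AN at 5 W. EN replicate 3 at 5 W stood far below its group, and the P0 arrays below all of 5 W. Chrdl1 rose in AN by 5.92 (60.5-fold, standard error 0.56, adjusted p = 7.17e-08) and in EN by 3.53 (adjusted p = 3.48e-05), and at 5 W it was higher in AN by 2.08 (adjusted p = 0.0311). That difference was not called without AN 5 W replicate 2 (1.98, adjusted p = 0.108), AN 5 W replicate 3 (1.99, adjusted p = 0.0622) or EN 5 W replicate 3 (1.04, adjusted p = 0.0855). Fst, which binds activins and Bmp ligands, lay between 10.79 and 10.95 at P0 and between 8.20 and 8.89 at 5 W in EN, and between 10.84 and 11.42 and between 7.19 and 8.22 in AN. Its change was −2.24 in EN and −3.37 in AN (10.4-fold, adjusted p = 2.76e-09). Its relative Fstl3 rose by 2.60 in EN and 3.20 in AN (9.21-fold, adjusted p = 2.29e-09).

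Of 10 known target genes, 0 rose and 5 fell in EN by 1 W, and 2 rose and 4 fell by 5 W. In AN 0 rose at any stage, with 4 falling by 1 W and 3 W and 6 by 5 W. Id2, an inhibitor of basic helix-loop-helix factors induced by Bmp signals, was at 13.13, 13.41 and 13.02 in EN and 13.12, 13.45 and 13.04 in AN at P0, while at 5 W it was at 9.37, 9.84 and 9.76 in EN and at a mean of 10.81 in AN. The fibres overlapped at P0 and were separate at 5 W. Its change was −3.53 in EN (11.5-fold, adjusted p = 2.34e-11) and −2.40 in AN (5.26-fold, adjusted p = 2.76e-09), and it was higher in AN by 1.17 at 3 W (adjusted p = 6.00e-04) and 1.15 at 5 W (adjusted p = 5.66e-04). Its relative Id4 was higher in AN by 1.21 at 5 W (adjusted p = 4.74e-03), and its AN change from P0 to 3 W, −0.90 (adjusted p = 4.86e-03), was not called with slide as a block (−0.14, adjusted p = 0.724). Fn1, the matrix protein fibronectin, had changes of −1.42 in EN and −1.67 in AN at 5 W. Ctgf, another matrix protein, had EN means of 13.34 (P0), 11.73 (1 W), 13.93 (3 W) and 14.18 (5 W), and its change from P0 to 1 W was −1.61 (adjusted p = 1.36e-04).

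Among the 6 Smads, the transducers of the signal, none rose since P0, and 2 fell in EN and 3 in AN by 3 W and again by 5 W. Smad3, which carries Tgfb signals, changed in AN by −0.67 from P0 to 1 W and by −0.87 to 3 W (adjusted p = 3.96e-05). Smad9 was above background on 3 EN and 2 AN arrays at P0 and on 1 EN and 3 AN arrays at 1 W. At 3 W and 5 W it was above background on 0 EN arrays, against all 6 AN arrays there, so that no fold is given. Of 9 intracellular inhibitors, Skil, a repressor of Smad complexes, changed by −1.59 in EN (3.02-fold, adjusted p = 1.46e-07) and −1.26 in AN from P0 to 5 W, and Pmepa1, which sequesters Smads, by −1.43 in EN and −0.94 in AN to 3 W.

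Other receptors moved apart. Of 9 tested, 3 rose and 3 fell in EN and 4 rose and 3 fell in AN by 3 W, and as many by 5 W. Acvr2b, an activin receptor, rose by 1.74 in EN and 1.89 in AN by 5 W, and Acvrl1, a type I receptor of endothelial cells, by 1.25 and 1.42. Bmpr1b, a type I Bmp receptor, was above background on all AN arrays. In EN it was above background on 3 of 3 arrays at P0, 0 of 3 at 1 W, 2 of 3 at 3 W and 1 of 3 at 5 W. At P0 its mean log2 signal was 6.35 in EN and 6.20 in AN. Of 6 coreceptors, Eng, an endothelial binding partner of Tgfb and Bmp ligands, rose in EN by 0.79, 1.22 and 1.20 at the 3 stages and in AN by 0.68 at 5 W.

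Further ligands and the genes of Tgfb latency went in both directions. Of 6 other Bmp and Gdf ligands tested, 2 rose and 3 fell in EN by 5 W, and 1 rose and 3 fell in AN. Bmp5 rose in EN by 1.53 by 5 W (2.88-fold, adjusted p = 1.26e-07) and in AN by 0.53 (adjusted p = 6.70e-03), and at 5 W its AN minus EN difference was −0.77 (adjusted p = 4.09e-03). Of 11 ligands of the Tgfb and activin branch, 4 rose and 1 fell in EN and 3 rose and 1 fell in AN by 5 W. Gdf9, best known from the oocyte, rose by 2.50 in EN and 2.58 in AN. Of 9 latency genes, 3 rose and 2 fell in EN and 2 rose and 3 fell in AN by 5 W. Lrrc32, which tethers latent Tgfb to the cell surface, changed in AN by −1.25 to 1 W, −2.23 to 3 W (4.69-fold, adjusted p = 6.08e-08) and −1.43 to 5 W. Itgb8, whose integrin frees active Tgfb, rose in both fibres at every stage, by 1.65 in EN and 2.16 in AN at 1 W, though with its probes averaged the EN change at 5 W went from 0.65 to −0.31.

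**Figure D5:**
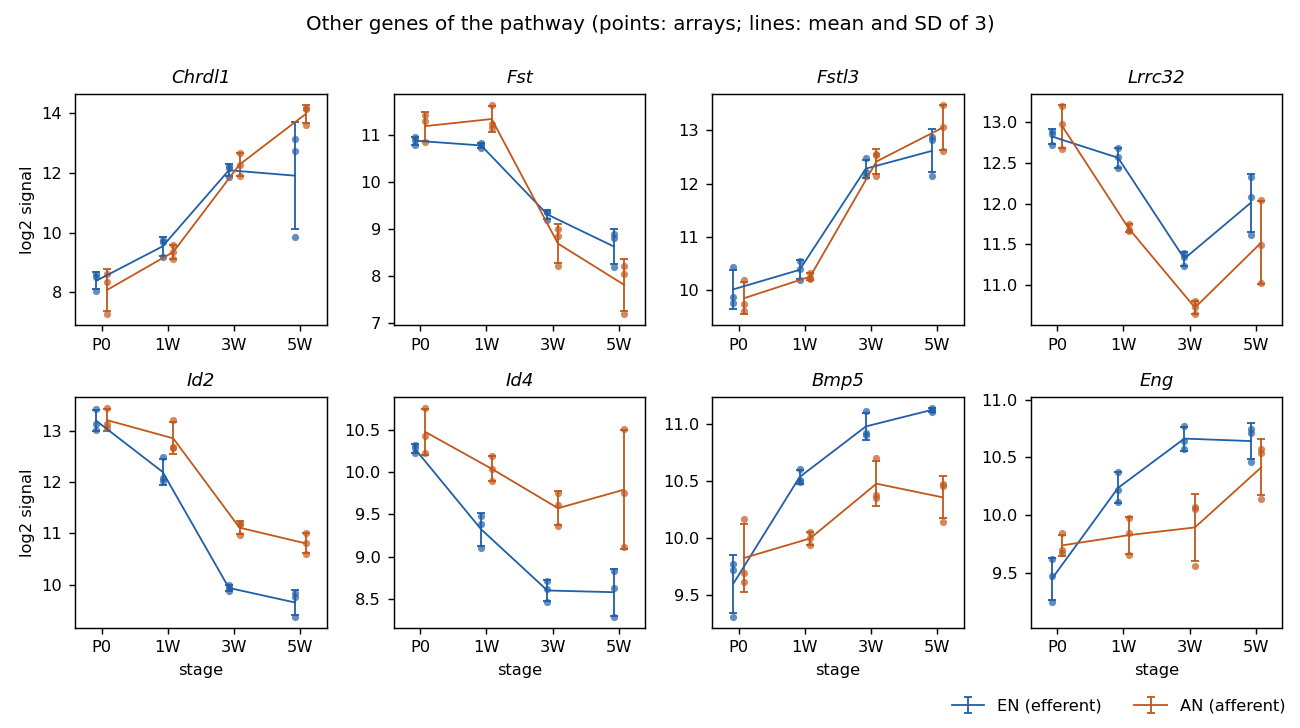
Log2 signal (vertical axes) of 8 other genes of the pathway by stage (horizontal axes), with EN in blue and AN in orange; points are arrays, lines join means of 3 and bars are SD. Chrdl1 and Fstl3 are higher and Fst and Id2 lower at 5 W than at P0 in both fibres, and Id2 is higher in AN than in EN at 3 W and 5 W.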

How the data were processed

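RNA from 24 samples was hybridised to 1-colour Agilent arrays. Per the file headers, spot intensity was read with Agilent Feature Extraction 10.7.1.1. The authors quantile normalized these in GeneSpring GX, and the deposited table holds log2 values, with a median of 6.32 on every array. Of the spots, 55.1% to 71.7% were well above background and 0 were saturated. Columns of the table matched their own scanner file (rank r 0.999 to 1.0) better than any other (at most 0.981).

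A probe was kept where some group had it well above background on its 3 arrays (36409 of 56605, including 14 of the 16 of the members). Groups followed the labels. limma 3.58.1 (R 4.3.3) was fitted to the deposited values, 1 mean for each of 8 groups, with 17 two-sided comparisons and Benjamini-Hochberg adjustment over all kept probes. The 6 families of comparisons, named in the closing section, each count member tests. Precision is limited by the number of arrays. Tables were made with Python 3.11.15, pandas 2.3.3 and numpy 2.4.6. The fit was tested on simulated data, where 48 of 100 2-fold and 83 of 100 4-fold changes and 9 of 36209 unchanged probes were called (AN against EN at P0, 36409 probes).

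The pairing of arrays rests on replicate numbers in the labels. Arrays of equal number within a stage deviated together from their group means (r = 0.107 to 0.646 in 12 pairs, each above 0.1). The 24 pairs of unequal number had r = −0.467 to 0.116. Deviations from a mean of 3 sum to 0, so that correlation within equal numbers by itself lowers that between unequal numbers. At 3 W, where all arrays share a slide, equal numbers gave 0.18, 0.11 and 0.21, and the highest unequal pair, 0.116, is also of 3 W.

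The members and lists were chosen with earlier results of these data known. Beside the members, up to 4 genes of a pathway list were open to naming, those with the widest range of group means, and 3 most alike probes for each member. Marker lists are reported as a whole. Alternatives were the scanner signal quantile normalized or scaled to its 75th percentile, normexp background correction (offset 50), a stricter filter and none, replicate number or slide as a block, array quality weights, the compared groups alone, fold thresholds, averaged probes and each array left out. The replicate block within a stage was added after seeing the data. Probe positions are mm9, from the scanner files, and exons were not assigned. Promoter sequences are RefSeq's, build GRCm38.p6.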

Additional observations from a re-analysis of the deposited data

Results flagged for a closer look

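None of the 10 genes showed a difference between the fibres that changed with age beyond the threshold without the pairing of arrays, but 3 other genes of the pathway did, in 4 tests of the AN-EN difference at a stage minus that at P0 (limma, adjusted over all tested probes). These came out of 78 other pathway genes tested, with 0 called at 1 W. At 3 W and again at 5 W, 1 was called higher and 1 lower (1.28% each). The shares of all probes called, in either direction, were 0.0632% (1 W), 0.615% (3 W) and 1.14% (5 W).

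Bmp5, a Bmp ligand, had log2 signals in EN of 9.77, 9.31 and 9.72 (P0) and 11.11, 11.15 and 11.13 (5 W), and in AN of 9.62, 9.69 and 10.17 (P0) and 10.15, 10.48 and 10.46 (5 W). The fibres overlapped at P0 and were separate at 5 W, and the AN-EN difference moved by −0.99 (adjusted p = 0.0281, and 0.0155 with the pairs as a block). It was not called without AN P0 replicate 3, EN P0 replicate 2, AN 5 W replicate 1 or any EN array of 5 W (adjusted p = 0.0532 to 0.0735).

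For Eng, the difference moved by −1.06 from P0 to 3 W (adjusted p = 0.0328, and 0.0172 with the pairs). The EN arrays at 3 W read 10.78, 10.57 and 10.64 against 10.07, 10.05 and 9.56 in AN. The call ended without AN P0 replicate 2 or 3, EN P0 replicate 2 or 3, AN 3 W replicate 3 or any EN array of 3 W (adjusted p = 0.0564 to 0.105). Endothelial markers, where Eng is well known, also moved in AN against EN at 3 W minus P0 for 2 of 5 genes, and their part was not tested.

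For Id2, the difference moved by 1.16 at 3 W (adjusted p = 0.0432, and 7.74e-04 with the pairs) and by 1.13 at 5 W (adjusted p = 0.0338, and 5.62e-04 with the pairs). At 3 W the call ended without AN P0 replicate 1 or 3, any EN array of P0, AN or EN 1 W replicate 1 or 2, AN 3 W replicate 1 or 2, any EN array of 3 W, or EN 5 W replicate 2 (adjusted p = 0.0502 to 0.127). At 5 W it ended without AN P0 replicate 1 or 3, EN P0 replicate 1 or 2, AN 5 W replicate 2 or EN 5 W replicate 1 (adjusted p = 0.0618 to 0.099).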

How the results depend on the processing

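Of 44 calls among the 10 genes, 29 held under all alternatives that set no fold threshold. AN against EN gave 3 calls, and 8 with the replicate block within each stage, 7 with slide as a block, 6 with array quality weights and 0 with a fold above 2, whether p was adjusted or not. The AN-EN difference since P0 gave 0 calls, and 1 with only probes above background on all 24 arrays, 4 with the replicate block within each stage, 4 with slide as a block, 3 with quality weights and 2 at an unadjusted p with a fold above 2. Consecutive stages in AN gave 3 calls, and 5 with the replicate block across all arrays, 8 with quality weights and 1 under either fold threshold. Either fold threshold left 7 of 16 calls in EN against P0, 10 of 17 in AN against P0 and 1 of 5 between consecutive stages in EN. The cause of these shifts was not tested, except that a fold threshold removes calls by construction.

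Leaving out 1 array gave 3 to 4, 13 to 17 and 17 to 18 calls (AN against EN, EN and AN against P0), 3 to 6 in either fibre between consecutive stages, and 0 to 1 for the difference since P0. Of the single values called before or after the change of setting, 3 turned direction, while values close to 0 that were called in neither also changed sign. The 3 were Bmp7 in EN from P0 to 3 W (0.02, and −0.34 with slide as a block), Itgb8 in EN from P0 to 5 W (0.65, and −0.31 with its probes averaged) and Smad9 in AN from 1 W to 3 W (0.01, and −1.17 without AN 3 W replicate 3, with leave-one-out values up to 0.73).

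With 3 arrays a group, small changes can be missed: of simulated 2-fold changes between AN and EN at P0, 48 of 100 were recovered. Stage is largely tied to slide, and 3 W to a slide that holds no P0 or 1 W array.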
